A study of Mus musculus with 4 samples.

Results

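Acetylated sites deep inside the longest genes of cultured mouse chondrocytes were examined in 2 H3K27ac peak lists. A peak counted when its summit lay inside a protein-coding gene of 200 kb or longer and over 10 kb from both ends of that gene, so promoters at the annotated gene ends were left out. The rule used the position of a summit and the length of a gene, and no level of signal. It took in 2920 peaks, 1490 of the Cre list and 1430 of the GFP list, which is 11.2% of all 26003 deposited peaks. The gene table held 989 genes of that length, 4.52% of its protein-coding genes, and 282 of them (28.5%) held at least 1 such interior peak.

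The cells were primary chondrocytes of C57Bl/6 mice in micromass culture, in which a dense drop of cells lays down cartilage matrix. The Cre culture received an adenovirus carrying Cre recombinase and is labelled hdac3-knockout, and the GFP culture received a GFP control adenovirus and is labelled wild-type. The comparison asks where the mark lies in chondrocytes with and without Hdac3. Each culture gave 1 library, so every difference below is between 2 libraries without replicates and carries no p-value, and less acetylation per cell cannot be told apart from fewer acetylated cells. The sources used here do not give the age or number of the mice, a check of the deletion, or which control reads the caller used.

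H3K27ac is an acetyl mark on histone H3 found at active promoters and enhancers. HDAC3 is a deacetylase of the NCoR and SMRT corepressor complexes and can remove acetyl groups from histones. Enhancers often lie in introns, and very long genes consist mostly of intron, so an interior peak may serve its host gene or a neighbour. Many of the longest mammalian genes code for neuronal adhesion and synapse proteins, while others code for developmental transcription factors.

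The labelled cell type was checked against marker genes taken with 10 kb on each side. All 8 chondrocyte markers had peaks in both lists, 99 Cre and 116 GFP peaks in sum. Of the markers of other cells, Sp7 of osteoblasts had 2 Cre and 3 GFP peaks, and Col3a1 of fibroblasts had 6 and 4. Cd68 of macrophages had 3 GFP peaks and no Cre peak. The markers of fat, endothelium, muscle and neurons (3 of each) and the remaining ones of bone, fibroblasts and blood had none.

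Some interior peaks overlapped a start window that RefSeq places inside the long gene. Of 1270 start windows with their start in a long interior (250 bases before to 50 after a start, some of them overlapping), 33 in 20 host genes overlapped a member peak. These comprised 11 start windows of the host's own shorter transcripts and 22 of other genes, mostly long non-coding RNAs. Peaks of both lists overlapped 11 windows, Cre peaks alone 12 and GFP peaks alone 10. Windows that overlap can share a peak, as the Dhrs3 windows shared a GFP peak of fold 10.3. The same shares are not given for start windows elsewhere, so these counts are a description only. The windows below are the host's own internal starts with peaks in both lists and 3 starts of other genes that lie in dense runs of peaks. Dnm3os is a non-coding RNA from which microRNAs are cut, Mab21l2 is an embryonic patterning gene, and Dhrs3 codes for a retinaldehyde reductase. Pde4b codes for a cAMP phosphodiesterase, Sox6 for a partner of SOX9, and Tacc2 for a centrosome protein. Letters are GRCm38.p6 from RefSeq, and capitals mark motif matches.
Dnm3os (chr1:162217373-162217672, plus strand, host gene Dnm3): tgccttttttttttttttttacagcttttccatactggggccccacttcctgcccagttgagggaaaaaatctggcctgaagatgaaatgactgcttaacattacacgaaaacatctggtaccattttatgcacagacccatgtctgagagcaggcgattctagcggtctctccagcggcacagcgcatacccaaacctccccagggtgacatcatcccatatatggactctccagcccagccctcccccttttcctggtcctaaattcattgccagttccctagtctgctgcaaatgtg
Mab21l2 (chr3:86548234-86548533, minus strand, host gene Lrba): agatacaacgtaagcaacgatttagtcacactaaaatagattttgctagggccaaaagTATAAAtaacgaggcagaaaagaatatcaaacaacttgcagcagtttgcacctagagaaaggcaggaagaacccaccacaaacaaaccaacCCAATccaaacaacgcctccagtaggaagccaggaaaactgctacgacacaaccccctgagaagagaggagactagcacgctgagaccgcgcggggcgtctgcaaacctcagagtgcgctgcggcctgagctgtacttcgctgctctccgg
Dhrs3 (chr4:144892887-144893186, plus strand, host gene Vps13d): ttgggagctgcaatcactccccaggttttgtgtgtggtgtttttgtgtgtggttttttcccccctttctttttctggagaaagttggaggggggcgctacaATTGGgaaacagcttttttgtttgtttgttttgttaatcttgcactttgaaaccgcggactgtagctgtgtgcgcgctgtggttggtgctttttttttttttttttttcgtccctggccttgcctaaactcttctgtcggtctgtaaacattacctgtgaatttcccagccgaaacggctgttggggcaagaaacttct
Pde4b (chr4:102589593-102589892, plus strand, host gene Pde4b): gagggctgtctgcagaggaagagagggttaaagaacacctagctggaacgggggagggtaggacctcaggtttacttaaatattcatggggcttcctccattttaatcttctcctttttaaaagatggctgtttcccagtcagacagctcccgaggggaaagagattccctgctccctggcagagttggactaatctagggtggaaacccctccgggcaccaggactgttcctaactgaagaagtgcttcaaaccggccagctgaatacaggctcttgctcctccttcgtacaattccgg
Sox6 (chr7:115824661-115824960, minus strand, host gene Sox6): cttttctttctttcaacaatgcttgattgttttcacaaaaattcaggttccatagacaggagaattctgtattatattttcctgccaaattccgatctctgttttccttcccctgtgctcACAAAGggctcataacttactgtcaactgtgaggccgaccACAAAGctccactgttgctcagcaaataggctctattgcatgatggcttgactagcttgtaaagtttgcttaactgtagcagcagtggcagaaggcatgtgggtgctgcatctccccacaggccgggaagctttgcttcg
Tacc2 (chr7:130577188-130577487, plus strand, host gene Tacc2): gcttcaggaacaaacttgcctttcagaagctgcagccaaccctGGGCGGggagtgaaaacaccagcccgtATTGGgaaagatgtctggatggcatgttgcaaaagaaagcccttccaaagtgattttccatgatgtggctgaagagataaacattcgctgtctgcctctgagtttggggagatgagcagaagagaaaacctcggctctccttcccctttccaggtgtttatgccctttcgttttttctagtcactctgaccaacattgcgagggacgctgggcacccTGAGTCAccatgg

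The motifs searched on both strands were the CCAAT box, the GC box (GGGCGG), the TATA box (TATAAA), the AP-1 site (TGANTCA) and the SOX core (ACAAAG), and none contains another. They occur in 37.4%, 35.7%, 13.6%, 7.81% and 18.7% of all 32851 RefSeq start windows of the same length, in that order. The Sox6 window held 2 matches to the SOX core. The Mab21l2 window held 1 TATA box and 1 CCAAT box, and the Dhrs3 window 1 CCAAT box. The Tacc2 window held 1 CCAAT box, 1 GC box and 1 AP-1 site. The Dnm3os and Pde4b windows held none of these letters. The 33 windows overlapped by member peaks had a median of 5 CpG dinucleotides, against 7 in all windows, and the highest count among the 6 windows shown was 14, in Mab21l2.

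The Pde4b window was overlapped by a Cre peak of fold 6.97 and a GFP peak of fold 9.14, where fold is the authors' caller's enrichment at the summit and ranks a peak within its own list. For Sox6 the highest folds were 5.96 (Cre) and 7.70 (GFP), and for Tacc2 they were 5.98 and 5.13. The Mab21l2 window had folds of 5.08 and 8.18 and the Dhrs3 window 7.81 and 10.3. At the Dnm3os window the Cre list had 1 peak of fold 4.98 and the GFP list none, its nearest peaks lying on either side. The broad GFP peak described below began just past that window.

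MicroRNA hairpins also lay inside long genes. Of 87 hairpins there, 13 had a member peak in the 25 kb around them. Hairpins of a cluster share their peaks, and the same share is not given for hairpins elsewhere. Sets of the 13 lay in or beside runs of peaks. In Dnm3 the miR-199a hairpin lay in a run and the miR-214 hairpin just past its end, both on the strand opposite to Dnm3. In Aopep the miR-23b, miR-27b and miR-24-1 cluster lay in a run. Mature sequences of 6 of these microRNAs follow from RefSeq, with the seed (bases 2 to 8) in capitals. No seed is shared between those shown.
mmu-miR-199a-5p: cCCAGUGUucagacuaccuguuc
mmu-miR-199a-3p: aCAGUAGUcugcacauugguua
mmu-miR-214-5p: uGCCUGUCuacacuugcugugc
mmu-miR-214-3p: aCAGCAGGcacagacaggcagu
mmu-miR-27b-3p: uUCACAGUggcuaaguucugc
mmu-miR-24-3p: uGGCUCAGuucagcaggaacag

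The Mir199a-2 hairpin lay inside a GFP peak and was partly overlapped by a Cre peak. Around it, Dnm3, a dynamin gene, held a run of 8 Cre and 5 GFP peaks over 5.46 kb, about 257 to 262 kb from its start. The GFP list had 1 peak of 2737 bp at chromosome 1, 162217708 to 162220444, with fold 15.4 and 29 fragments at the summit (the pileup). It was the widest GFP peak of the set. The Cre list had 5 peaks inside the same stretch, 147 to 818 bp wide with folds of 4.19 to 8.59 and pileups of 13 to 21. A single broad GFP peak thus stands against several narrow Cre peaks, so peak numbers depend on how the caller split a region. The Cre peak over the hairpin had 13 fragments. In the 25 kb around the Aopep hairpins there were 6 Cre and 4 GFP peaks, none of them over a hairpin. In Fndc3b a Cre peak of 153 bp covered Mir3092.

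Interior peaks were concentrated in few of the long genes. The 4 genes with most peaks, Aopep, Fndc3b, Xylt1 and Zbtb20, held 17.5% of all peak entries on 0.402% of the interior sequence, and the first 10 genes held 30.5% on 1.05%. The first 26 genes held 50% of the entries. A peak inside 2 overlapping long genes gives an entry to each, which happened 8 times. At the other end, 77 genes held a single peak and 707 held none. The median gene with any peak held 3, and 113 genes held 6 or more.

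Aopep, an aminopeptidase gene, held 71 Cre and 59 GFP interior peaks in 361204 bp (chromosome 13, 62964893 to 63326096). Fndc3b, a fibronectin type III domain gene, held 82 and 46 in 295173 bp (chromosome 3, 27416135 to 27711307). Xylt1, whose enzyme adds the first sugar of glycosaminoglycan chains to proteoglycan cores, held 63 and 65 in 286652 bp (chromosome 7, 117380979 to 117667630). It had 23.6 Cre and 24.4 GFP peaks per 100 kb of interior, and its density over both lists, 48.0, was the highest among long genes with 6 or more peaks. Fndc3b had 29.8 and 16.7 per 100 kb, and Aopep 20.8 and 17.3. These values compare with medians of 2.66 and 2.17 per 100 kb over the 113 genes.

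Zbtb20, a zinc finger repressor gene, held 46 Cre and 80 GFP peaks in 758704 bp (chromosome 16, 42875689 to 43634392), or 6.23 and 10.8 per 100 kb. Sox5, a partner of SOX9 in cartilage, held 39 and 45 in 953863 bp, and Sox6 held 23 and 16. Aff3, of the AFF family of elongation factors, held 28 and 44, and Trps1, a GATA-type repressor of the growth plate, held 32 and 19. Trps1 was the shortest of these at 235875 bp, and its densities were 14.8 and 8.80 per 100 kb. Peak number did not follow gene length. Across the 282 genes with peaks the rank correlation of the 2 was -0.04, and across all 989 long genes it was -0.05 (Spearman, over genes of the same libraries, a description).

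Another 4 genes of glycosaminoglycan synthesis held from 3 to 68 peaks over both lists. Csgalnact1, whose enzyme starts chondroitin chains, held 36 Cre and 32 GFP peaks, or 10.03 and 8.92 per 100 kb. Chst11, a chondroitin sulfotransferase gene, held 14 and 24, or 7.31 and 12.53 per 100 kb. Chsy3, which extends chondroitin, held 8 and 2. Ext1, of heparan sulfate synthesis, held 1 and 2. Csgalnact1 and Chst11 were named by their peak number or density in these lists, and stood on none of the gene lists. Long genes of glycosaminoglycan synthesis were not counted as a set, so no share of them with peaks is given. Of the 25 long genes on the list of matrix and matrix-modifying genes, 6 held a peak (24%, interval 9.36 to 45.1), and Fbn1, Fbn2, Lama2, Ltbp1, Hmcn1, Col14a1 and Col22a1 held none.

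**Figure D1:**
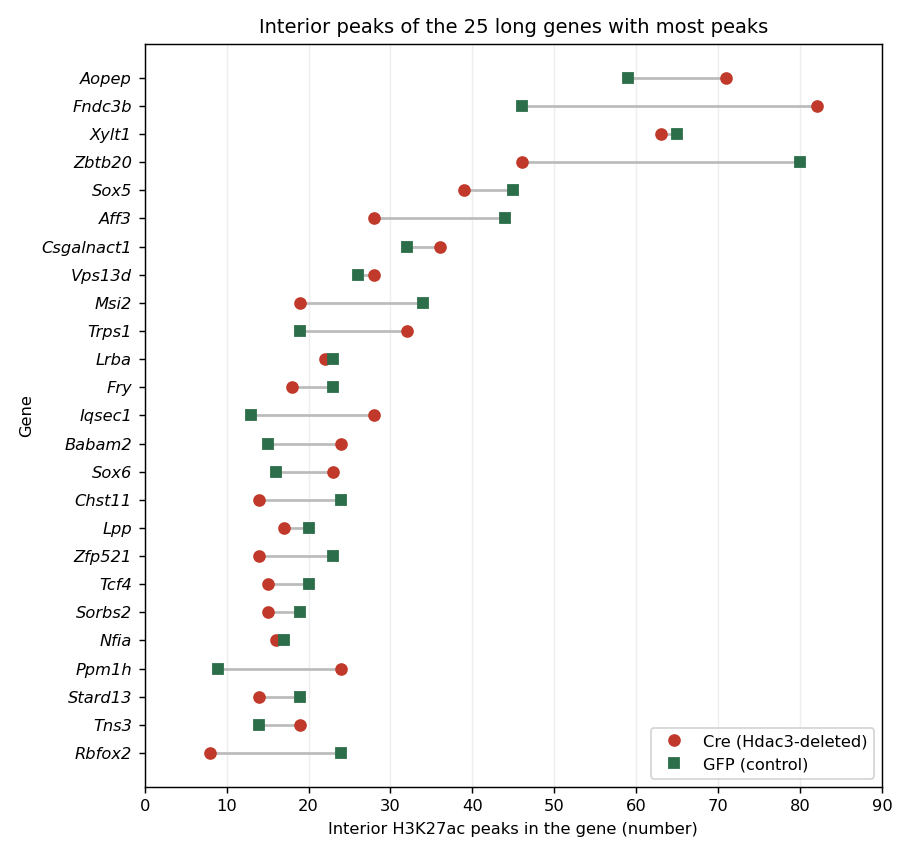
Number of interior H3K27ac peaks (x axis) in each of the 25 long genes with most peaks (y axis), with circles for the Cre library, squares for the GFP library and a line joining the 2 values of a gene. Fndc3b lies at 82 and 46 and Zbtb20 at 46 and 80, while Xylt1 lies at 63 and 65.

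The gene lists differed in how many long members held peaks. They were chosen with earlier results of these data known, so their shares are a description and no test of the lists. Shares are given with exact Clopper-Pearson 95% intervals, here and below, which cover counting error and not differences between cultures. Neighbouring peaks are not independent, so intervals for shares of peaks are too narrow throughout. Of 41 long regulators of transcription, 25 held a peak (61.0%, interval 44.5 to 75.8), with a median of 1 peak a gene, against 28.5% and a median of 0 over all long genes. They held 243 Cre and 279 GFP peaks, or 1.35 and 1.55 per 100 kb. Tcf4, a basic helix-loop-helix factor gene, held 15 and 20 peaks, and Nfia, a nuclear factor I gene, held 16 and 17. Runx1 held 7 and 3, Runx2, which drives hypertrophy, held 2 and 2, and Glis3 held 5 and 4. Foxp1, a forkhead gene, held 1 Cre and 5 GFP peaks. Prdm16, Ebf1, Tead1, Meis2 and Hdac9 were among the 16 without a peak. Within the list, 12 members had more Cre peaks and 11 more GFP peaks.

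Cytoskeleton and adhesion genes held peaks in 18 of 34 long members (52.9%, interval 35.1 to 70.2). After Fndc3b, the highest were Lpp, a LIM protein of focal adhesions (17 Cre and 20 GFP peaks), and Sorbs2, of stress fibres (15 and 19). Tns3, a tensin gene, held 19 and 14, and Macf1, a microtubule and actin crosslinker gene, held 16 and 13. In the list of receptors, kinases and phosphodiesterases 18 of 44 held a peak (40.9%, interval 26.3 to 56.8). Pde4b led it with 10 Cre and 6 GFP peaks, followed by Igf1r, the receptor of insulin-like growth factor 1, with 7 and 5. This list had 0.207 and 0.166 peaks per 100 kb, below the 0.373 and 0.358 of all long interiors.

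Neuronal adhesion and synapse genes held peaks in 11 of 71 long members (15.5%, interval 7.996 to 26.0), at 0.0363 Cre and 0.0261 GFP peaks per 100 kb. Their highest member, Syn3, a synapsin gene, held 9 and 8 peaks, and Astn2 held 4 and 5. In Astn2 1 Cre peak, of fold 7.47, overlapped a start window of Trim32, another protein-coding gene inside it. Peaks are counted by position, so they need not serve the host gene. Nrxn3, Csmd1, Csmd3, Cntn5 and Rbfox1 were among the 60 without any. Of 22 long genes known for common fragile sites, 6 held a peak (27.3%, interval 10.7 to 50.2), near the 28.5% of all long genes. The 6 were Lpp, Auts2, Rora, Wwox, Pde4d and Macrod2, while Fhit and Immp2l were among those with none. Of the 10 longest genes, from Dmd at 2390387 bp to Fhit at 1611970 bp, 8 had no interior peak in either list, and Lsamp and Macrod2 had 1 GFP peak each.

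The density of interior peaks was lowest in the longest genes. Genes of 200 to 250 kb had 0.652 Cre and 0.585 GFP peaks per 100 kb. Those of 250 to 300 kb had 0.775 and 0.696, and those of 300 to 400 kb had 0.623 and 0.586. The clear fall among long genes began at 400 kb. Genes of 400 to 600 kb had 0.283 (0.250 to 0.320) and 0.287 (0.253 to 0.323), with exact Poisson intervals. Genes of 1000 kb or more had 0.0358 (0.0238 to 0.0517) and 0.0243 (0.0146 to 0.0379). Poisson intervals take each peak as independent, which neighbouring peaks are not, so they are too narrow. The share of genes with any interior peak moved less, from 29.5% (24.1 to 35.3) at 200 to 250 kb to 20.3% (10.98 to 32.8) at 1000 kb or more. Interiors of genes over 20 kb and under 200 kb had 0.733 (0.705 to 0.762) and 0.738 (0.710 to 0.767) peaks per 100 kb, against 0.373 (0.354 to 0.392) and 0.358 (0.339 to 0.377) in long genes. No drop lay at the limit itself, as genes of 150 to 200 kb had 0.554 and 0.508, below each class from 200 to 400 kb. Beside the length limit, 9 of 31 genes at most 5 kb too short held 33 Cre and 35 GFP interior peaks, and 4 of 24 genes at most 5 kb over it held 22 and 28.

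**Figure D2:**
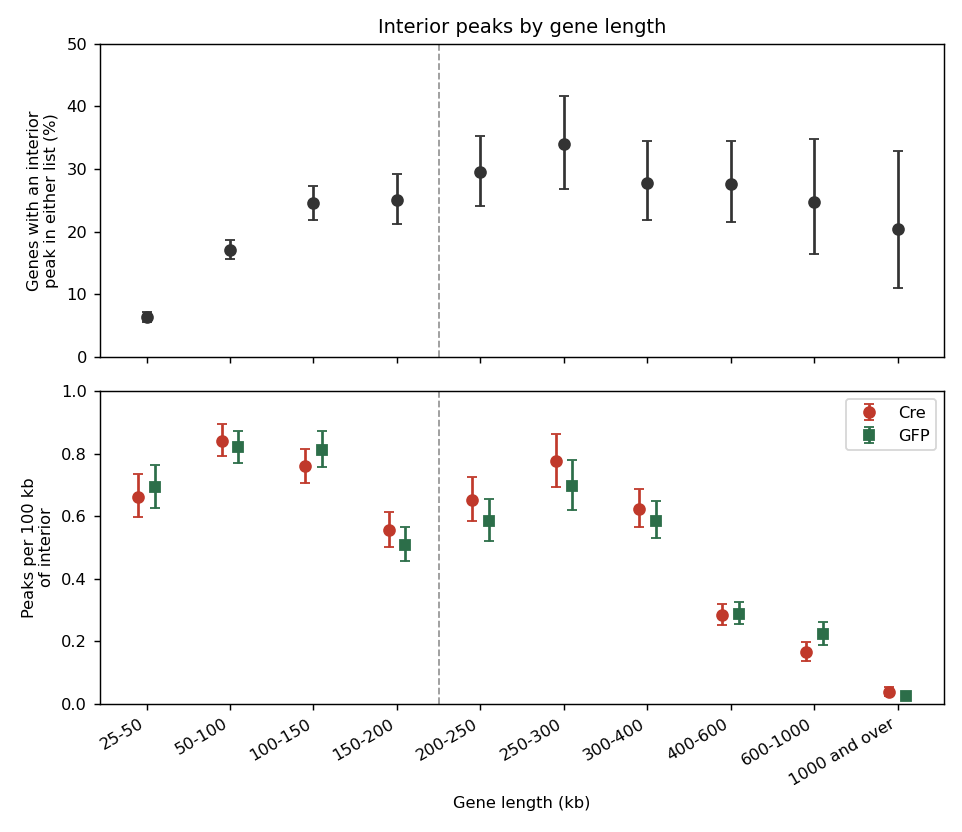
Share of genes with an interior peak in either list (upper y axis, percent, exact binomial 95% bars) and peaks per 100 kb of interior in each library (lower y axis, exact Poisson 95% bars) by gene length in kb (x axis); the dashed line marks 200 kb. Densities fall to 0.0358 (Cre) and 0.0243 (GFP) in the longest class.

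Within a gene the peaks lay in tight runs. The median distance from a member summit to the nearest other summit of its list in the same gene was 0.847 kb for Cre and 0.763 kb for GFP peaks. Another peak of the same list and gene lay in the 25 kb window centred on the summit for 81.4% (79.3 to 83.4) of Cre and 83.4% (81.3 to 85.3) of GFP members. The values in shorter genes were 78.8% (77.2 to 80.4) and 79.8% (78.2 to 81.3), where 369 Cre and 365 GFP peaks were alone in their gene, against 85 and 73 in the long genes. The median gap between consecutive summits was 1.51 kb and 1.19 kb, or 0.134 and 0.0999 of the gap that even spacing of the same peaks would give. In Lrba the median Cre gap was 0.581 kb against 23.4 kb for even spacing, and in Nfia the median GFP gap was 0.680 kb against 28.9 kb. In Farp1, a FERM domain gene, the median Cre gap was 20.9 kb against 20.8 kb for even spacing, while the GFP gap was 3.66 kb against 15.2 kb.

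Peaks of both lists were joined into runs when no gap between summits exceeded the radius of that window. There were 161 runs of 5 or more peaks in 92 genes, which held 69.3% of peak entries on 0.580% of the interior sequence. Of these runs, 156 held peaks of both libraries. The largest lay in Aopep and counted 47 Cre and 49 GFP peaks over 62.7 kb, 275 to 338 kb from the gene start (chromosome 13, 63240147 to 63303057). Xylt1 had 2 such runs, of 34 Cre and 36 GFP peaks over 65.3 kb and of 26 and 28 peaks over 54.4 kb. In Fndc3b a run of 50 Cre and 31 GFP peaks spanned 147 kb, 49.8% of the gene's length. In contrast, the 30 peaks of the largest Sox5 run spanned 34.6 kb, 3.63% of that gene.

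Runs of the regulators were short parts of long genes. In Nfia 8 Cre and 12 GFP peaks lay within 8.76 kb, 195 to 204 kb from the start. In Sox6 6 Cre and 7 GFP peaks lay within 3.49 kb at 215 to 218 kb, the place of the internal Sox6 start shown above. The main Lrba run, 16 and 16 peaks over 15.7 kb, lay around the Mab21l2 start, which is 325 kb inside Lrba. In Vps13d a run of 14 and 14 peaks over 29.4 kb took in the Dhrs3 start. In all, 94 members (3.22%) had a summit within 10 kb of the end of another protein-coding gene, 32 of them in Lrba and 25 in Vps13d, so those peaks can be counted for either gene.

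In 25 kb steps of the long interiors, 3.71% held a Cre peak and 3.38% a GFP peak. Steps with 3 or more peaks made up 1.15% and 1.10% and held 65.7% of Cre and 67.9% of GFP entries. Of 180 steps with 3 or more Cre peaks, 67.2% had 3 or more GFP peaks, and of 173 such GFP steps 69.9% had 3 or more Cre peaks. Without a single peak of the other list were 17 of the Cre and 10 of the GFP steps.

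**Figure D3:**
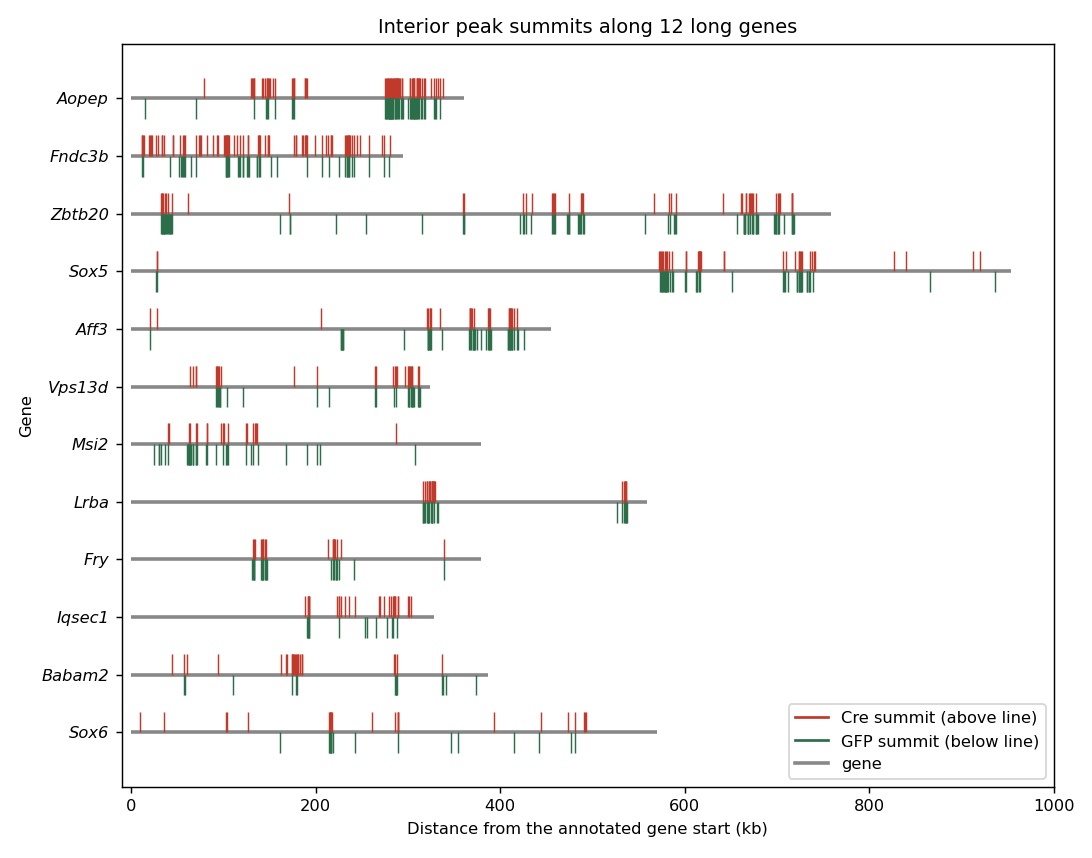
Summits of interior peaks along 12 long genes (y axis), by distance from the annotated gene start in kb (x axis), with Cre summits above and GFP summits below each gene line. Summits gather in runs that hold both libraries, such as the one 275 to 338 kb into Aopep.

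The strand was known for 744 of the 989 long genes from the RefSeq start windows. Members were not gathered near the gene start: of the Cre peaks 44.4% (41.4 to 47.4), and of the GFP peaks 43.0% (39.9 to 46.0), lay on the start's side of the gene midpoint. Without the 10 genes of most peaks the shares were 47.8% (44.2 to 51.3) and 48.4% (44.6 to 52.1). Density was 0.358 Cre and 0.305 GFP peaks per 100 kb at 10 to 25 kb from the start, 0.468 and 0.414 at 50 to 100 kb, and 0.414 and 0.417 at 200 to 400 kb. Beyond 400 kb, where the longest genes supply the sequence, it was 0.193 and 0.211. Single genes were lopsided. Among 29 genes with strand and 20 or more peaks, 4 had over 90% of them on the start's side (Zmiz1, a transcriptional coactivator gene, Sorbs2, Macf1 and Msi2, an RNA-binding protein gene). In 8 genes the share was under 10%, among them Lrba and Iqsec1 with none and Sox5 with 4.76%.

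Gene ends were marked more often in genes with many interior peaks. A gene end here is a window of 1 kb on each side of either annotated end, which the membership rule excludes. Of the 41 genes with 20 or more interior peaks, 29.3% (16.1 to 45.5) had a peak of either list at an end. The share was 20.8% (12.2 to 32.0) of 72 genes with 6 to 19 interior peaks, 14.2% (9.32 to 20.4) of 169 with 1 to 5, and 4.95% (3.47 to 6.82) of 707 with none. Among the 41 genes, 29 had no peak at either end in either list, including Aopep, Xylt1, Sox5, Sox6 and Aff3. Zbtb20 had 2 Cre and 2 GFP peaks at an end, and Trps1 had 3 and 2.

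A minority of interior peaks overlapped a peak of the other list. By an overlap of at least 1 bp, 539 Cre members (36.2%, 33.7 to 38.7) and 543 GFP members (38.0%, 35.4 to 40.5) were shared, against 40.7 and 41.4 percent of all peaks of the Cre and GFP lists. Interior peaks of shorter genes gave 36.6% (34.7 to 38.5) and 36.6% (34.8 to 38.5). Within 1 kb, 60.8% and 65.3% of members had a peak of the other list. Of 951 Cre members without overlap 70.1% (67.1 to 73.0) had a GFP peak in the 25 kb around the summit, and of 887 such GFP members 74.3% (71.3 to 77.1) had a Cre peak there. Most one-library members thus had a peak of the other list nearby. The same share is not given for other one-library peaks, so it is not shown to be particular to long genes.

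Sharing rose with the number of fragments at the summit. With 7 to 9 fragments, 17.2% (12.51 to 22.7) of the Cre peaks were shared, and 18.75% (14.2 to 24.1) of the GFP peaks. The shares were 26.4% (23.2 to 29.8) and 30.7% (27.3 to 34.3) at 10 to 12 fragments, and 68.4% (60.4 to 75.6) and 66.4% (57.9 to 74.3) at 16 to 19. At 20 to 29 they were 83.6% (71.2 to 92.2) and 85.1% (71.7 to 93.8). Interior peaks of shorter genes gave intervals that overlapped these at every step, such as 27.9% (25.4 to 30.5) and 28.6% (26.1 to 31.3) at 10 to 12. Member pileups ran from 7 to 29 in the Cre list and from 7 to 31 in the GFP list, where the highest pileups of all peaks were 63 and 58. Median width was 195 and 199 bp, and median fold 5.88 and 6.05, beside 194 and 198 bp and 5.98 and 6.16 for all peaks.

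**Figure D4:**
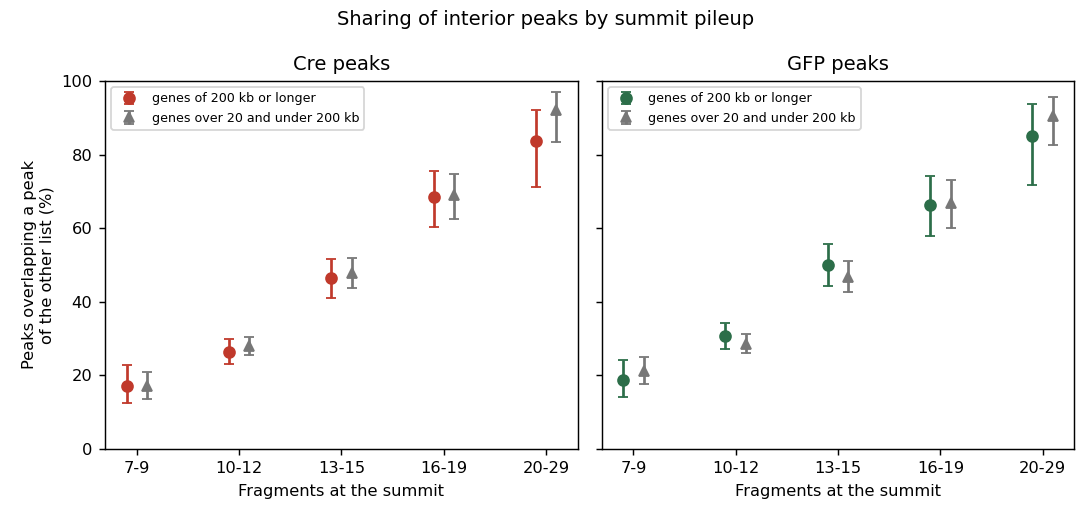
Percent of interior peaks that overlap a peak of the other list (y axis, exact binomial 95% bars) by fragments at the summit (x axis), for Cre (left) and GFP (right) peaks of genes of 200 kb or longer and, as triangles, of shorter genes. In long genes the share rises from 17.2% to 83.6% for Cre and from 18.75% to 85.1% for GFP peaks.

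The strongest members were mostly shared. The highest GFP fold, 16.4 with 31 fragments, was in Npas3, a PAS domain factor gene, at chromosome 12, 53292744 to 53293426, 44.9 kb from its start. The Cre list had a peak of fold 12.3 and 24 fragments there. Syne1, which codes for nesprin-1 of the nuclear envelope, had GFP fold 14.9 at 262 kb from the start, where the Cre list also had peaks. The highest Cre fold, 13.4 with 26 fragments, was in Aopep at chromosome 13, 63139419 to 63140025. Hdac4, a class IIa deacetylase gene that restrains chondrocyte hypertrophy, held 1 Cre peak of 161 bp with fold 12.9 and 25 fragments, 14.96 kb from its start. The overlapping GFP peak had fold 4.74 and 17 fragments. Ppm1h, a phosphatase gene, had its highest Cre fold, 12.4, and its highest GFP fold, 13.95, at separate sites, each shared.

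Among members without overlap, the highest Cre folds were in Spidr, a DNA repair scaffold gene (11.7 and 11.04), Lpp (11.5), Arhgef3, a guanine nucleotide exchange factor gene (10.96), and Nsmce2, of the SMC5/6 complex (10.96). For GFP they were in Aff3 (12.3), Dnm3 (10.8), Phactr2, an actin and phosphatase regulator gene (10.8), Fry (10.3) and Stard13, a GTPase-activating protein gene (10.3). The Aff3 peak, at chromosome 1, 38401538 to 38401859, lay in a run of 6 GFP peaks over 2.44 kb without a Cre peak. The Lpp, Nsmce2, Fry and Stard13 peaks and the Spidr peak of fold 11.04 had a peak of the other list within 1 kb, although none overlapped.

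Sharing differed between genes with many peaks. Over the 41 genes with 20 or more, the shared part of the Cre peaks ran from 18.75% in Gmds, a fucose synthesis gene, to 78.6% in Aff3. In Aff3 22 of 28 Cre peaks and 19 of 44 GFP peaks overlapped, and in Zbtb20 26 of 46 and 25 of 80. In Fndc3b the order was the other way, with 21 of 82 Cre and 19 of 46 GFP peaks. In these genes the overlapping peaks of the 2 lists were close in number. The list with fewer peaks in a gene therefore had the higher shared part, which restates the peak numbers. Shares of single genes are given without intervals. Nfia was balanced, with 11 of 16 and 12 of 17, and so was Xylt1, with 24 of 63 and 29 of 65. In Rbfox2, a splicing factor gene, 2 of 8 Cre and 2 of 24 GFP peaks overlapped.

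The libraries shared out the long genes about evenly. Cre peaks were 51.0% (49.2 to 52.9) of all members, against 50.5% of all deposited peaks. Of the 282 genes, 177 held peaks of both lists, 63 of the Cre list alone and 42 of the GFP list alone. The 77 genes with a single peak can only be of 1 list, and the same counts are not given for shorter genes. The genes of a single list held few peaks, at most 7 Cre or 3 GFP. Across the 113 genes with 6 or more peaks the Cre and GFP numbers had a rank correlation of 0.74 (Spearman, over genes, a description).

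A gene was called leaning when it held 6 or more interior peaks and at least 2 times as many of one list as of the other. Of 113 long genes, 21 (18.6%, 11.9 to 26.99) leaned to Cre, against 18.5 percent of the 352 genes of any length. Towards GFP 8 leaned (7.08%, 3.11 to 13.5), against 12.8 percent. Among shorter genes the shares were 18.4% (13.7 to 23.9) and 15.5% (11.1 to 20.7), intervals that overlap those of the long genes. The Cre-leaning share in long genes was thus near the background. Among peaks whose −log10 q-value reached 5, the numbers were 15 (Cre) and 14 (GFP).

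Fndc3b had the largest difference towards Cre, 82 against 46 peaks, a Cre share of 64.1% (55.1 to 72.3), and its covered lengths were 18831 and 11798 bp. Ppm1h held 24 Cre and 9 GFP peaks (72.7%, 54.5 to 86.7) over 8392 and 2871 bp. Iqsec1, which codes for an exchange factor of the small GTPase ARF6, held 28 and 13 (68.3%, 51.9 to 81.9), but 40% were Cre peaks when the 5000 most significant peaks of each list were used. Spidr held 15 and 5 (75%, 50.9 to 91.3). Rad51b, of homologous recombination, held 7 Cre peaks and Sgcd, a sarcoglycan gene, held 6, and neither held a GFP peak. Both were named after their values were seen. The Rad51b peaks had 9 to 14 fragments and 4 of them lay 301 to 303 kb from its start. In Sgcd 3 lay together, at about 611 kb.

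Zbtb20 had the largest difference towards GFP, 46 against 80 peaks, a Cre share of 36.5% (28.1 to 45.6), and covered lengths of 12736 and 22140 bp. Rbfox2 held 8 Cre and 24 GFP peaks (25%, 11.5 to 43.4) over 1510 and 4353 bp. A run of 10 GFP peaks over 9.96 kb in Rbfox2 (chromosome 15, 77149851 to 77159932) was the largest run without a Cre peak. Aff3 held 28 and 44 peaks (38.9%, 27.6 to 51.1), with covered lengths of 7812 and 15069 bp. Msi2 held 19 and 34 (35.8%, 23.1 to 50.2), Chst11 14 and 24, and Zfp521, a zinc finger gene, 14 and 23. Pam, of peptide amidation, held 10 and 19, and Fmn1, a formin gene, held 3 and 11. In Zfp521 the difference lay in 1 run of 2 Cre and 14 GFP peaks over 14.6 kb, while another run there held 6 and 5. With peaks closer than 500 bp merged, the Cre share in Zfp521 was 58.3%, on the other side of even numbers from its 37.8% as deposited.

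The interval of the Cre share lay above 50% for 6 of the 113 genes (Fndc3b, Ppm1h, Iqsec1, Spidr, Rad51b and Sgcd), against 15 of the 352 genes of any length (4.26 percent). It lay below 50% for 2, Zbtb20 and Rbfox2, against 6 of the 352 (1.7 percent). In both directions the long genes were near this background, which includes them. Neighbouring peaks of a gene are not independent, so the intervals of its Cre share are too narrow for the gene as a whole. Most of these calls were lost when fewer peaks entered. With peaks within 500 bp merged, only Fndc3b of the 8 genes kept an interval without 50%, and with the top 5000 peaks of each list none did. At a −log10 q of 5 or more, 3 of them did (Zbtb20, Rbfox2 and Ppm1h). Among the other genes of most peaks, numbers were close in several, with 36 Cre and 32 GFP peaks in Csgalnact1, 28 and 26 in Vps13d, 22 and 23 in Lrba and 18 and 23 in Fry.

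**Figure D5:**
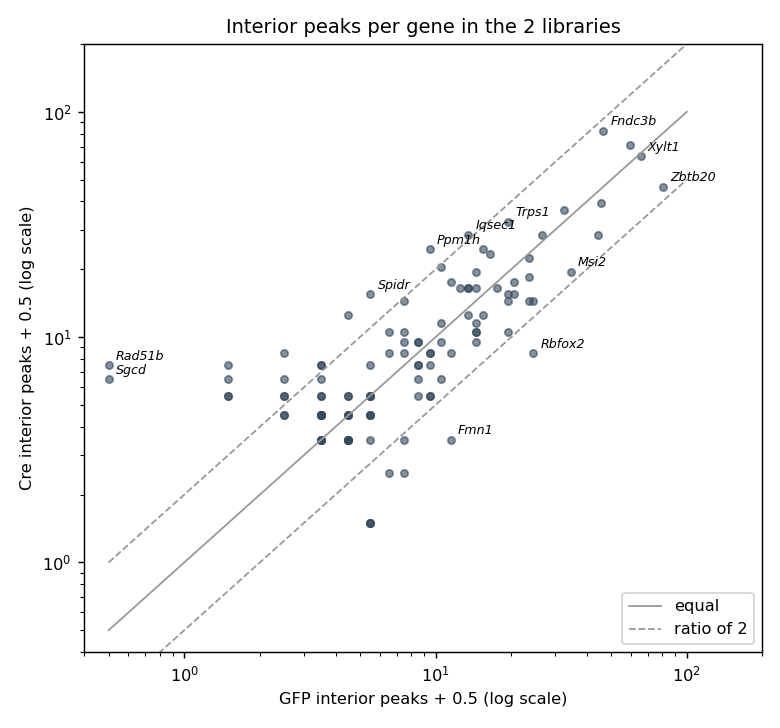
Cre interior peaks (y axis) against GFP interior peaks (x axis), each plus 0.5 on a log scale, for the 113 long genes with 6 or more peaks; the solid line marks equal numbers and the dashed lines a ratio of 2. Most genes lie between the dashed lines, and 21 genes lie on or beyond the upper and 8 on or beyond the lower line by the counts themselves.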

How the data were processed

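H3K27ac ChIP-seq libraries of 2 cultures were analysed from 1 peak list each, and the 2 input libraries were not analysed here. The submitters' processing notes list mm10 and the tools BWA, bcl2fastq 1.8.4, SICER and Picard. The deposited files are marked as MACS2 output; the sources used here give neither its version nor its settings. The deposited fold ratio, −log10 p-value and −log10 q-value belong to the summit, and the deposited score is that q-value term times 10, cut to a whole number. Pileups were found as the whole number that best matched fold and p-value with a Poisson tail. The −log10 p-value so obtained lay within 0.001 of the deposited one in 100% of peaks. The sources used here give no read totals. The most frequent expected pileup was 1.01 (Cre) and 0.949 (GFP); depth itself was not measured.

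Genes and start windows came from RefSeq GRCm38.p6 tables (21896 protein-coding genes), whose coordinates are those of mm10; positions are 1-based. Python 3.11.15, pandas 2.3.3 and scipy 1.17.1 were used, and the functions were tested on simulated data. Interior length was counted once where genes overlap. Named genes were the 15 with most peaks, the 10 of highest density, those of largest difference and of the highest-fold peaks, the 10 longest and the leading list members; not all are reported. The members, gene lists and settings were chosen with earlier results of these data known. Alternatives changed gene length, end distance, peak threshold, overlap, merging and neighbour distance; runs were built with 1 gap only.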

Additional observations from a re-analysis of the deposited data

How the results depend on the processing

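No paired analysis was possible because each culture had 1 library. The Cre share of members stayed within its interval under all 8 alternatives run for it (49.7% to 52.3%). Sharing, as Cre and GFP values, was 40.6% and 40.6% with genes of at least 300 kb, 33.4% and 34.9% at a −log10 q of 5 or more, 15.4% and 16.1% with an overlap of 50% of both peaks, and 60.8% and 65.3% within 1 kb. It was 33.0% for Cre with peaks within 500 bp merged and 33.2% for GFP with the top 5000 peaks. Peaks per 100 kb were 0.268 and 0.271 with genes of at least 300 kb, 0.462 and 0.455 with genes of at least 100 kb, 0.214 and 0.204 at a −log10 q of 5 or more, 0.1203 and 0.1198 with the top 5000 peaks, and 0.267 and 0.244 with merged peaks. The share with a neighbour in the list was 74.7% and 77.8% at a −log10 q of 5 or more, 67.4% and 73.9% with the top 5000, 68.6% and 69.5% with merged peaks, 74.8% and 77.6% within 5 kb of the summit, and 86.4% and 87.3% within 25 kb of it. Genes leaning to Cre numbered 8 and to GFP 5 with genes of at least 300 kb, 37 and 23 with genes of at least 100 kb, and 13 and 5 with merged peaks. To Cre 7 leaned with the top 5000 peaks and 10 at a ratio of 3, and to GFP 14 at a −log10 q of 5 or more. Genes holding a member numbered 147, 637 and 184 with at least 300 kb, at least 100 kb and the top 5000 peaks. Fewer genes, peaks or base pairs enter by construction; other causes were not tested. Of 170 values of the Cre share in single genes, 164 stayed in the gene's interval and 1 called difference crossed even numbers, Iqsec1 at 40% with the top 5000 peaks. Of the 8 genes whose interval left out 50%, the call was lost in 7 with merged peaks, 8 with the top 5000 and 5 at a −log10 q of 5 or more, and in none with the other distances from gene ends. Pileups of 7 to 31 fragments limit any single peak, and a site missing from 1 list may have fallen short of the caller's threshold.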

Other observations

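Long genes on chromosome X held few interior peaks. There were 45 long genes on that chromosome, with 1 Cre and 3 GFP interior peaks in all. Chromosome 19, with 24 long genes, held 34 and 38, and chromosome 17, with 34 long genes, held 13 and 19. Numbers of all deposited peaks on each chromosome are not given, so the low count is not shown to be particular to long genes.

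At the 10 kb limit, members 10 to 15 kb from a gene end numbered 50 Cre and 44 GFP, with median folds of 5.74 and 6.16. Peaks 5 to 10 kb from an end numbered 59 and 44, with median folds of 5.50 and 5.97.

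Peaks near the Mir3075 hairpin in Zmiz1 numbered 9 Cre and 5 GFP in the 25 kb around it, and near Mir6398 in Macf1 6 and 3.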
